A study of Mus musculus with 12 samples.

Results

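Transcript levels of 27 genes of cholesterol synthesis and of its transcription factor SREBP2 were followed in 12 mouse liver RNA sequencing libraries. The genes were listed by name for their known function and kept where their level exceeded 1 TPM, a unit that scales transcript abundance to the same total in each library, in at least 3 of the 12 libraries. All 27 listed genes passed, each above 1 TPM in 12 of 12 libraries, among 12120 genes that passed the same filter and 31253 gene symbols in the files. The set holds 20 synthesis enzymes, 4 genes of the SREBP2 machinery (Srebf2, Scap, Insig1 and Insig2) and 3 genes of sterol transport and uptake control (Stard4, Npc1 and Mylip).

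The livers came from male C57BL6 mice in 4 groups of n = 3 libraries. S302A_DEN mice carried the CUGBP1 s302a knock-in, an allele of the RNA-binding protein CUGBP1 (gene Celf1), and received diethylnitrosamine (DEN), a liver carcinogen that alkylates DNA. S302A_Ctrl mice carried the knock-in and were untreated. WT_DEN mice were wild type (WT) and received DEN, and WT_Ctrl mice were wild type and untreated. The DEN dose was 50 µg per g body weight at 3 weeks of age. Livers were taken 30 to 38 weeks after that, at a stated age of 33 to 41 weeks. The labels give neither the age, feeding state or time of day of a single liver nor whether it held tumours. They do not number the animals, so the p-values measure the spread between these samples. TPM keeps no sequencing depth, so the counting precision behind each value is unknown. In whole liver, fewer cells of a type and less RNA per cell cannot be told apart.

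Cholesterol is built from acetyl-CoA through mevalonate, isoprenoids, squalene and lanosterol. SREBP2 is a transcription factor that SCAP and the INSIG proteins hold in the endoplasmic reticulum membrane when sterols are plentiful. When sterols run low, SCAP carries it to the Golgi, where proteases release the part that enters the nucleus and switches on the enzymes of the pathway. The liver is a main site of this synthesis and also turns cholesterol into bile acids.

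SREBP2 is known to act at promoters together with NF-Y, which binds the CCAAT box, so promoter windows were searched for sites of both kinds. RefSeq windows (build GRCm38.p6, 250 bases before to 50 bases after the start) were matched for 22 of the 27 genes. Lss, Insig2, Dhcr7, Acat2 and Mvd are the 5 genes with the smallest p for DEN over both genotypes among those with a window, and of these Lss, Mvd and Insig2 are shown because they held a CCAAT box. Hmgcs1 is shown because its window matched a sterol regulatory element, a choice made after its sequence was seen. Capitals mark CCAAT, read as ATTGG on the other strand, and in Hmgcs1 also the match to TCACNCCAC, a core of the sterol regulatory element.
Lss (chr10:76531355-76531654, plus strand): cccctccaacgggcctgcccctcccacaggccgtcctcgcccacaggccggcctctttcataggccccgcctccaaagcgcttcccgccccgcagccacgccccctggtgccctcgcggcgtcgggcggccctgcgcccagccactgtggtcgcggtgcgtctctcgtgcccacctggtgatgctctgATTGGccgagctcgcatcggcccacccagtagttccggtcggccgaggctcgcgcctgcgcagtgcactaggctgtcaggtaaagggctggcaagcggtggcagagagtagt
Mvd (chr8:122443373-122443672, minus strand): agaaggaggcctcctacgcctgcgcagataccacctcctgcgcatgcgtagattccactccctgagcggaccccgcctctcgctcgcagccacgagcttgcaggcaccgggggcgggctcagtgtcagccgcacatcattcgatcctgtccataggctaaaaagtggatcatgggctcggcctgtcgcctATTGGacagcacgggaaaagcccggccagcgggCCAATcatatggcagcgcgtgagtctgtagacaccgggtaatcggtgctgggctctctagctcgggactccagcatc
Insig2 (chr1:121332540-121332839, minus strand): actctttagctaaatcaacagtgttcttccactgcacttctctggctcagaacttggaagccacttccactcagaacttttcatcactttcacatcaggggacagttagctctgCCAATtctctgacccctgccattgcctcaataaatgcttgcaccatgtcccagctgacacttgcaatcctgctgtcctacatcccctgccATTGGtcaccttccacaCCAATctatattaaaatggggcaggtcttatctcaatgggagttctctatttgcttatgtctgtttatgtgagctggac
Hmgcs1 (chr13:119690101-119690400, plus strand): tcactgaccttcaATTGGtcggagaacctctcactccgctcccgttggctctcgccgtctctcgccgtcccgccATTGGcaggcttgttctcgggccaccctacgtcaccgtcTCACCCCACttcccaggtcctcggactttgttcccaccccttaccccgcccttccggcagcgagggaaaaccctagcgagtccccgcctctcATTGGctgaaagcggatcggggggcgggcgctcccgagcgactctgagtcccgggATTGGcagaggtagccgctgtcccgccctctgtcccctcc
Both strands were searched, and matches of different motifs overlapped in 0 of the 22 windows. CCAAT was found in 19 of the 22 windows (86.4%), against 37.4% of all 32851 mouse windows and 39.2% of 1 window for each of 8557 tested genes. GGGCGG, the GC box, was found in 19 of 22 (86.4%), against 35.7% of all windows and 63.3% of those of tested genes. TCACNCCAC was found in 1 of 22, Hmgcs1, against 1.24% of all windows and 1.18% of those of tested genes. CACGTG, an E-box, was found in 4 of 22 (Hsd17b7, Sc5d, Scap and Insig1), against 7.15% of all windows and 10.4% of those of tested genes. The CCAAT boxes of Mvd began 60 and 27 bases before the start, that of Lss 62 bases before it, and the sterol element of Hmgcs1 137 bases before it. Dhcr7 and Acat2 held neither CCAAT nor TCACNCCAC in this window. These are letters in a window, and no binding was measured.

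One library, S302A_DEN replicate 3, differed from the rest. Ranked over the tested genes, it correlated with each other library at Spearman's rho of 0.877 to 0.913, where the other 55 pairs gave 0.937 to 0.980. A scaling factor from the median of gene ratios came to 1.69 for it and lay between 0.820 and 1.18 for the other 11. In it 9 of 9 stellate cell markers, 7 of 8 macrophage markers and 7 of 7 proliferation genes lay above both other S302A_DEN libraries. The same held for 87.0% of all tested genes and for 7 of 8 sinusoidal endothelial and 4 of 6 bile duct cell markers. It held for 3 of 8 lymphocyte, 2 of 4 neutrophil, 2 of 10 hepatocyte and 0 of 3 erythroid markers. Of the 7 proliferation genes only 3 passed the filter, and 1 did when S302A_DEN replicate 3 was left out. Summed stellate markers spanned 35.6 to 243 TPM in S302A_DEN, 46.2 to 54.6 in S302A_Ctrl, 60.2 to 87.6 in WT_DEN and 52.8 to 68.9 in WT_Ctrl. Summed macrophage markers spanned 71.6 to 383 TPM in S302A_DEN, 109 to 183 in S302A_Ctrl, 82.3 to 159.6 in WT_DEN and 76.0 to 185 in WT_Ctrl. All 10 hepatocyte markers were detected, with sums of 54472 to 65801 TPM in S302A_DEN, 48090.2 to 60908 in S302A_Ctrl, 77862 to 93859.5 in WT_DEN and 43342 to 69628 in WT_Ctrl. Summed bile duct cell markers spanned 13.3 to 32.5 TPM in S302A_DEN, 9.82 to 10.8 in S302A_Ctrl, 11.5 to 11.7 in WT_DEN and 9.73 to 10.5 in WT_Ctrl. So the DEN libraries lay above the untreated ones in both genotypes, though only 2 of these 6 markers passed the filter. Summed erythroid markers spanned 615 to 1154 TPM in S302A_DEN, 1162 to 3359 in S302A_Ctrl, 514 to 965 in WT_DEN and 596 to 1143 in WT_Ctrl. Every S302A_DEN library lay below every S302A_Ctrl library, narrowly so at 1154 against 1162 TPM, and 2 of these 3 markers passed the filter. Summed sinusoidal endothelial markers spanned 32.4 to 81.1 TPM in S302A_DEN, 42.0 to 69.1 in S302A_Ctrl, 57.6 to 76.6 in WT_DEN and 45.1 to 53.3 in WT_Ctrl. The endothelial and hepatocyte sums were higher in every WT_DEN library than in every WT_Ctrl library, and their knock-in groups overlapped. Of all tested single genes 21.7% had every WT_DEN library above every WT_Ctrl library. In the knock-in 15.8% had every DEN library above every untreated one, and 2.68% had every DEN library below. Krt7 and Cftr of bile duct cells and Cd8a, Ms4a1 and Klrb1c of lymphocytes stood at 1 TPM, the lowest value in the files, in all 12 libraries. The part of these markers in the results was not tested, and the knock-in changes with DEN are also given without this library.

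In knock-in livers DEN went with higher levels of most synthesis enzymes, and 1 of them, Sqle, passed the test. Of 20 enzymes, 19 were higher in S302A_DEN than in S302A_Ctrl, with a median log2 change of 1.13, against 0.27 over all tested genes, of which 79.4% were higher. In wild type 16 of 20 were higher in WT_DEN than in WT_Ctrl, with a median of 0.36 against 0.13 over all genes, of which 70.3% were higher. By limma with Benjamini-Hochberg adjustment over all genes and a threshold of 0.05, 1 of 27 genes passed in the knock-in, where 0.619% of all genes did, and 0 of 27 in wild type, where 0.132% did. At an unadjusted p under 0.05, 15 of 27 were higher in the knock-in, where 13.8% of all genes were, and 0 of 27 in wild type, where 6.89% were. Without S302A_DEN replicate 3, 18 of 20 enzymes were higher in the knock-in with a median of 0.72, and no enzyme passed, where the median over all genes was near 0, 49.3% of them were higher and 289 of 11883 (2.43%) passed. Median-of-ratios scaling moved the median of all genes in the knock-in to 0.01, and 16 of 20 enzymes were then higher with a median of 0.81.

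**Figure D1:**
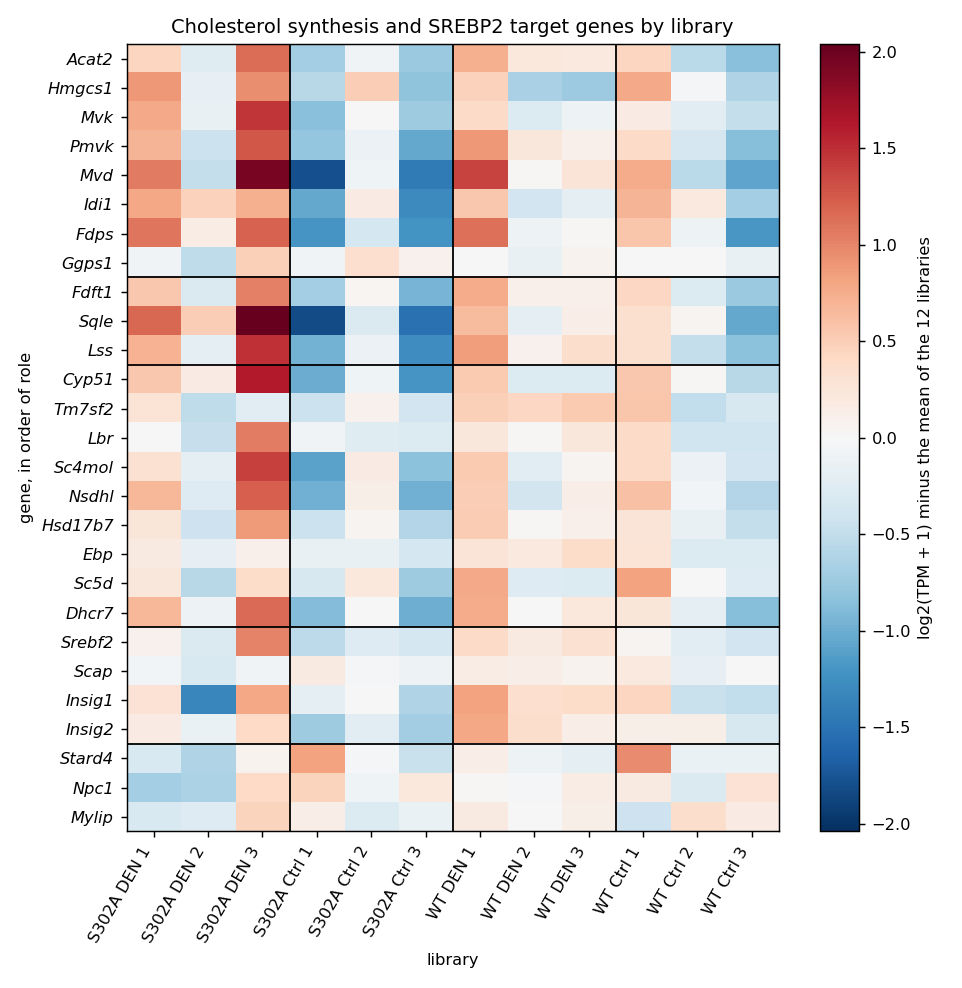
Levels of the 27 genes (rows, by role) in the 12 libraries (columns), as log2(TPM + 1) minus the gene's mean over the libraries, with red higher and blue lower. Most enzyme rows are red in S302A_DEN replicates 1 and 3 and blue in S302A_Ctrl replicates 1 and 3.

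Squalene is the first intermediate used for sterols alone. Sqle, squalene epoxidase, a rate-limiting enzyme of sterol synthesis, lies on mm10 chromosome 15 from 59315077 to 59331192, plus strand. With libraries in the order of replicates 1, 2 and 3, here and for the genes that follow, it stood at 52.1, 32.7 and 96.3 TPM in S302A_DEN, against 5.67, 18.4 and 7.26 TPM in S302A_Ctrl. All 3 S302A_DEN libraries lay above all 3 S302A_Ctrl libraries. Sqle rose by a log2 change of 2.45 ± 0.48 (SE; limma adjusted p = 0.0434), and its mean TPM was 5.79-fold higher. Without S302A_DEN replicate 3 the change was 2.05 ± 0.49 (adjusted p = 0.0580). The call held in 3 of the 12 fits that each left out 1 library, those without WT_Ctrl replicate 3, S302A_Ctrl replicate 2 or S302A_DEN replicate 2. It ended in the other 9, at adjusted p up to 0.205, and without a filter (adjusted p = 0.327). It also ended with the knock-in libraries fitted alone (adjusted p = 0.137) and with a replicate block (adjusted p = 0.0822). It held with pseudocounts of 0.1 and 0.5 and a filter at 5 TPM (adjusted p of 0.0260 to 0.0400). It held too with median-of-ratios scaling (adjusted p = 0.0190), quantile normalization (adjusted p = 0.0191) and array quality weights (adjusted p = 0.00567). In these fits 5.37%, 5.61% and 13.3% of all genes passed. In wild type Sqle stood at 36.2, 19.7 and 24.9 TPM in WT_DEN, against 28.7, 23.6 and 10.5 TPM in WT_Ctrl. These groups overlapped, and the log2 change was 0.42 ± 0.48 (adjusted p = 0.925).

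The other enzymes of this stretch did not pass. Lss, lanosterol synthase, which closes the sterol rings, stood at 23.1, 11.98 and 40.5 TPM in S302A_DEN, against 6.58, 12.6 and 5.16 TPM in S302A_Ctrl. It stood at 25.6, 14.7 and 17.9 TPM in WT_DEN, against 17.5, 9.52 and 7.26 TPM in WT_Ctrl. S302A_DEN replicate 2 lay inside the S302A_Ctrl range and WT_DEN replicate 2 inside the WT_Ctrl range. The log2 changes of Lss were 1.45 ± 0.44 in the knock-in (adjusted p = 0.157; 1.04 without S302A_DEN replicate 3) and 0.77 ± 0.44 in wild type (adjusted p = 0.723). Fdft1, squalene synthase, averaged 51.5 ± 22.2 TPM in S302A_DEN and 25.4 ± 9.96 TPM in S302A_Ctrl, and 45.9 ± 13.0 TPM in WT_DEN and 32.6 ± 13.9 TPM in WT_Ctrl (SD, n = 3 each), with a knock-in log2 change of 0.96 ± 0.39 (limma adjusted p = 0.268) and of 0.66 without S302A_DEN replicate 3.

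The mevalonate and isoprenoid enzymes make the building blocks. Of these 8, 7 were higher in S302A_DEN than in S302A_Ctrl (median log2 change 1.19, and 0.81 without S302A_DEN replicate 3), and 6 were higher in WT_DEN than in WT_Ctrl (median 0.38). Fdps, farnesyl diphosphate synthase, had the highest median TPM of the 20 enzymes, 188 over the 12 libraries. It stood at 409.9, 214 and 447 TPM in S302A_DEN, against 82.8, 151 and 82.7 TPM in S302A_Ctrl. It stood at 421, 179.5 and 197 TPM in WT_DEN, against 287, 180.3 and 84.6 TPM in WT_Ctrl. The knock-in groups did not overlap, and the wild-type groups did. The log2 changes of Fdps were 1.74 ± 0.46 in the knock-in (adjusted p = 0.109) and 0.58 ± 0.46 in wild type (adjusted p = 0.866). The knock-in change of Fdps without S302A_DEN replicate 3 was 1.54.

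Mvd, mevalonate diphosphate decarboxylase, had the widest span of the 27 genes, its highest library being 18.5-fold above its lowest. It stood at 23.1, 7.24 and 43.2 TPM in S302A_DEN, against 2.33, 9.85 and 3.26 TPM in S302A_Ctrl. It stood at 28.9, 10.7 and 12.8 TPM in WT_DEN, against 18.6, 6.90 and 4.47 TPM in WT_Ctrl. S302A_DEN replicate 2 lay below S302A_Ctrl replicate 2, and WT_Ctrl replicate 1 above WT_DEN replicates 2 and 3, so the groups overlapped in both genotypes. The log2 changes of Mvd were 1.94 ± 0.66 in the knock-in (adjusted p = 0.190) and 0.84 ± 0.66 in wild type (adjusted p = 0.861). That of Mvd in the knock-in was 1.39 without S302A_DEN replicate 3.

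Pmvk, phosphomevalonate kinase, acts 1 step before Mvd. It stood at 50.3, 22.6 and 75.9 TPM in S302A_DEN, against 17.4, 28.3 and 14.5 TPM in S302A_Ctrl. In wild type it stood at 57.8, 36.5 and 33.4 TPM in WT_DEN, against 40.7, 24.2 and 16.5 TPM in WT_Ctrl. S302A_Ctrl replicate 2 and WT_Ctrl replicate 1 reached into the DEN ranges. Acat2, the cytosolic thiolase at the head of the pathway, stood at 62.7, 38.6 and 103 TPM in S302A_DEN, against 28.1, 44.0 and 27.1 TPM in S302A_Ctrl. Wild-type livers had 77.4, 53.8 and 53.3 TPM in WT_DEN, against 63.0, 31.3 and 25.1 TPM in WT_Ctrl. The same 2 untreated libraries overlapped the DEN ranges. Acat3, a closely related gene beside it, could share reads with it, so its values are uncertain. Over both genotypes the log2 change with DEN was 0.92 ± 0.31 for Pmvk (adjusted p = 0.150) and 0.83 ± 0.27 for Acat2 (adjusted p = 0.148), and without S302A_DEN replicate 3 it was 0.73 for Pmvk and 0.65 for Acat2.

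The remaining enzymes of this stretch were named after their values were seen. Idi1, isopentenyl diphosphate isomerase, averaged 108 ± 12.4 TPM in S302A_DEN and 45.1 ± 27.1 TPM in S302A_Ctrl, and 70.0 ± 25.7 TPM in WT_DEN and 76.5 ± 34.3 TPM in WT_Ctrl (SD, n = 3 each). Hmgcs1, which makes HMG-CoA, averaged 114 ± 42.6 TPM in S302A_DEN and 64.2 ± 34.1 TPM in S302A_Ctrl, and 63.3 ± 32.5 TPM in WT_DEN and 81.1 ± 39.6 TPM in WT_Ctrl. Their knock-in changes were 1.38 ± 0.41 for Idi1 and 0.85 ± 0.46 for Hmgcs1, and 1.35 and 0.66 without S302A_DEN replicate 3. Their wild-type changes were -0.08 ± 0.41 for Idi1 and -0.35 ± 0.46 for Hmgcs1, and turned to 0.24 and 0.01 without WT_Ctrl replicate 1. Neither gene passed in either genotype. Mvk, mevalonate kinase, averaged 24.1 ± 13.1 TPM in S302A_DEN and 9.13 ± 3.47 TPM in S302A_Ctrl, and 13.3 ± 3.55 TPM in WT_DEN and 11.7 ± 2.95 TPM in WT_Ctrl, with a knock-in change of 1.22 ± 0.38, or 0.84 without S302A_DEN replicate 3. Ggps1, which makes geranylgeranyl diphosphate for protein prenylation, averaged 5.84 ± 2.38 TPM in S302A_DEN and 6.34 ± 1.08 TPM in S302A_Ctrl, and 5.61 ± 0.538 TPM in WT_DEN and 5.48 ± 0.367 TPM in WT_Ctrl. It was the 1 enzyme of the 20 that was lower in S302A_DEN than in S302A_Ctrl, with a change of -0.15 ± 0.25, which was -0.41 without S302A_DEN replicate 3 and turned to 0.09 without S302A_DEN replicate 2.

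**Figure D2:**
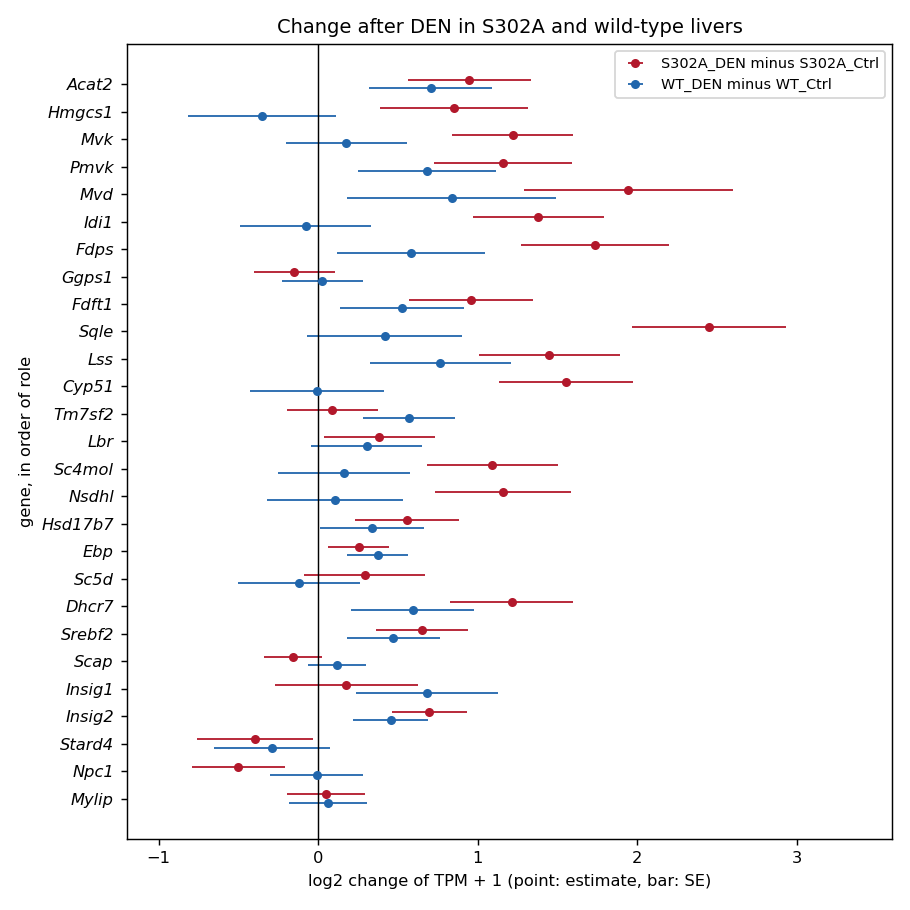
Log2 change of TPM + 1 with DEN for the 27 genes by role, in the knock-in (S302A_DEN minus S302A_Ctrl) and in wild type (WT_DEN minus WT_Ctrl), with limma standard errors. Knock-in values run from -0.50 (Npc1) to 2.45 (Sqle) and wild-type values from -0.35 (Hmgcs1) to 0.84 (Mvd).

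Of the 9 enzymes that turn lanosterol into cholesterol, 9 were higher in S302A_DEN than in S302A_Ctrl (median log2 change 0.56, and 0.24 without S302A_DEN replicate 3) and 7 in WT_DEN than in WT_Ctrl (median 0.31), with none passing. In the knock-in 8 of the 9 were higher without S302A_DEN replicate 3, and 6 were after median-of-ratios scaling (median 0.26). Dhcr7, the reductase of a last step, stood at 44.1, 25.2 and 61.6 TPM in S302A_DEN, against 14.2, 27.0 and 13.0 TPM in S302A_Ctrl. Wild-type livers had 46.4, 26.9 and 31.6 TPM in WT_DEN, against 32.3, 23.4 and 14.4 TPM in WT_Ctrl. S302A_DEN replicate 2 lay below S302A_Ctrl replicate 2, and WT_Ctrl replicate 1 lay inside the WT_DEN range. The log2 changes of Dhcr7 were 1.21 ± 0.39 in the knock-in (adjusted p = 0.175) and 0.59 ± 0.39 in wild type (adjusted p = 0.785). Dhcr7 had a knock-in change of 0.92 without S302A_DEN replicate 3.

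Cyp51, lanosterol demethylase, averaged 70.2 ± 39.0 TPM in S302A_DEN and 22.5 ± 10.4 TPM in S302A_Ctrl, and 38.1 ± 13.8 TPM in WT_DEN and 38.7 ± 14.9 TPM in WT_Ctrl (SD, n = 3 each). Its knock-in groups did not overlap, and its knock-in log2 change was 1.55 ± 0.42 (limma adjusted p = 0.115), or 1.14 without S302A_DEN replicate 3. Cyp51 passed under median-of-ratios scaling (1.24, adjusted p = 0.0428), quantile normalization (1.29, adjusted p = 0.0442) and array quality weights (1.25, adjusted p = 0.0206). In these fits 5.37%, 5.61% and 13.3% of all genes passed. Cyp51 passed in 0 of the 12 fits that each left out 1 library. With array quality weights 11 of the 27 genes passed upward in the knock-in. They were Cyp51, Dhcr7, Fdps, Idi1, Insig2, Lss, Mvd, Mvk, Nsdhl, Pmvk and Sqle, and Npc1 passed downward. Without S302A_DEN replicate 2, Fdps, Lss, Mvk and Sqle passed upward in the knock-in, where 2.78% of all genes passed. Nsdhl and Sc4mol (now Msmo1), which remove methyl groups from the sterol ring, had knock-in log2 changes of 1.16 ± 0.43 and 1.09 ± 0.41 and, without S302A_DEN replicate 3, of 0.82 and 0.65. Their wild-type changes of 0.11 ± 0.43 and 0.16 ± 0.41 turned to -0.07 and -0.02 under median-of-ratios scaling, and without WT_Ctrl replicate 3 to -0.18 and -0.01. Ebp, the sterol isomerase, Sc5d, a sterol desaturase, and Tm7sf2, a sterol reductase, had knock-in changes of 0.25, 0.29 and 0.09. These 3 changes were 0.22, 0.11 and 0.12 without S302A_DEN replicate 3 and turned to -0.06, -0.02 and -0.22 under median-of-ratios scaling. That of Tm7sf2 also turned to -0.12 without S302A_DEN replicate 1. Hsd17b7, a sterol ketoreductase, and Lbr, a nuclear envelope protein with sterol reductase activity, had knock-in changes of 0.56 and 0.38. That of Hsd17b7 was 0.24 and that of Lbr turned to -0.04 without S302A_DEN replicate 3.

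Groups that did not overlap were about as frequent among the 27 genes as among all genes in the knock-in. There 5 of 27 (Idi1, Fdps, Sqle, Cyp51 and Insig2) had every S302A_DEN library above every S302A_Ctrl library, where 15.8% of all genes did. The same 5 did so without S302A_DEN replicate 3, where 16.9% of all genes did, and Npc1 then had every S302A_DEN library below every S302A_Ctrl library, where 15.4% did. In wild type 2 of 27 (Srebf2 and Insig2) had every WT_DEN library above every WT_Ctrl library, where 21.7% of all genes did. For the average DEN effect over both genotypes, 0 of 27 passed, where 1.34% of all genes did, with Sqle nearest at 1.43 ± 0.34 (adjusted p = 0.0604), or 1.23 ± 0.33 (adjusted p = 0.0529) without S302A_DEN replicate 3. There 14 of 27 had an unadjusted p under 0.05 and were higher, where 17.2% of all genes did so, and 23 of 27 were higher at all, where 80.7% were. Under median-of-ratios scaling and under quantile normalization Sqle, Lss and Srebf2 passed upward and Npc1 downward, where 5.84% and 5.93% of all genes passed. With array quality weights 16 of 27 passed upward and 1 downward, where 26.2% of all genes passed.

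Within each group the enzymes shared much of their order of libraries. S302A_DEN replicate 2 was the lowest of its group for 20 of 20 enzymes, as for 70.6% of all genes, and replicate 3 the highest for 17, as for 87.0%. S302A_Ctrl replicate 2 was the highest for 19 of 20, as for 35.3% of all genes. WT_DEN replicate 1 was the highest for 16 of 20, as for 62.5%. WT_Ctrl replicate 1 was the highest for 20 of 20, as for 68.6%, and replicate 3 the lowest for 18, as for 41.0%. The enzymes share these libraries, so they are not independent of each other.

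**Figure D3:**
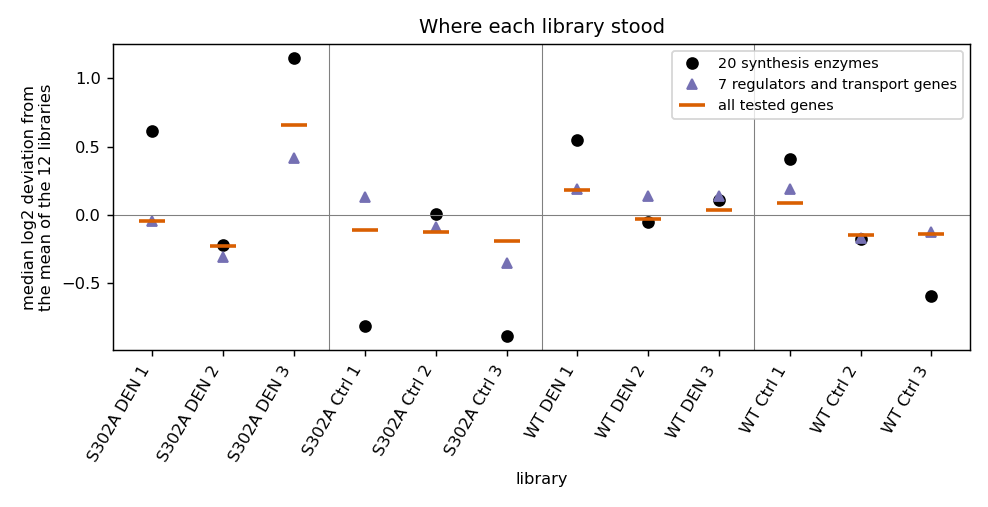
Median log2 deviation of each library from the mean of the 12 libraries, for the 20 enzymes, the 7 other genes and all tested genes. The enzymes stand at 0.62 in S302A_DEN replicate 1, where all genes stand at -0.05, and at -0.82 and -0.90 in S302A_Ctrl replicates 1 and 3, where all genes stand at -0.11 and -0.20.

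The summed level of the 20 enzymes was 1755, 1047 and 2233 TPM in S302A_DEN, against 709.9, 1175 and 648 TPM in S302A_Ctrl. It was 1870.4, 1099.6 and 1204 TPM in WT_DEN, against 1694, 1045 and 769 TPM in WT_Ctrl. The lowest DEN library lay below the highest untreated library in the knock-in and in wild type. From lowest to highest of the 12 libraries, the enzymes spanned a median of 4.55-fold, the 7 other genes 2.89-fold and all tested genes 2.67-fold.

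Untreated knock-in livers stood below untreated wild-type livers for most of the 27 genes, with none past the test. Of the 27, 24 were lower in S302A_Ctrl than in WT_Ctrl, with a median log2 change of -0.34 against -0.07 over all genes, of which 31.5% were higher. In this comparison 0 of 27 passed, where 0.033% of all genes did, and 1 (Insig2) had an unadjusted p under 0.05 and was lower, where 0.916% of all genes did so. The median was -0.08 without WT_Ctrl replicate 1, against 0.01 over all genes. The S302A_Ctrl libraries also serve in the knock-in DEN comparison, so the results share samples. After DEN, 16 of 27 were higher in S302A_DEN than in WT_DEN, with a median of 0.06 against 0.07 over all genes, of which 60.1% were higher, and 0 of 27 passed, where 0.38% did. That median was -0.26 without S302A_DEN replicate 3, against -0.20 over all genes. It was 0.41 without S302A_DEN replicate 2, against 0.25 over all genes. Tm7sf2, Ebp and Scap (3 of 27) had every S302A_DEN library below every WT_DEN library, where 6.19% of all genes did. Without S302A_DEN replicate 3 that held for 9 of 27, where 37.5% did.

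The interaction term tested whether the DEN change differed between genotypes. It was above 0, a larger change in the knock-in, for 19 of 27 genes, with a median of 0.41 against 0.14 over all genes, of which 66.6% were above 0. In it 0 of 27 passed, where 0.0413% of all genes did. The 3 genes above 0 with an unadjusted p under 0.05, where 2.23% of all genes were such, were Sqle (2.03 ± 0.68, adjusted p = 0.631), Cyp51 (1.56 ± 0.60, adjusted p = 0.779) and Idi1 (1.46 ± 0.58, adjusted p = 0.837). So a difference between genotypes in the DEN change was not shown for any of the 27. Without S302A_DEN replicate 3 the median was 0.11, against -0.13 over all genes.

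The genes that control SREBP2 did not all stand higher after DEN. Srebf2, which encodes SREBP2, stood at 13.3, 10.01 and 26.2 TPM in S302A_DEN, against 8.36, 10.2 and 9.51 TPM in S302A_Ctrl. Wild-type livers had 16.6, 14.3 and 15.7 TPM in WT_DEN, against 13.1, 10.7 and 9.27 TPM in WT_Ctrl. The wild-type groups did not overlap, and the knock-in groups did. The log2 changes of Srebf2 were 0.65 ± 0.29 in the knock-in (adjusted p = 0.297) and 0.47 ± 0.29 in wild type (adjusted p = 0.762), and the knock-in change was 0.28 ± 0.18 without S302A_DEN replicate 3. Scap, the escort protein, had the narrowest span of the 27 genes, 1.45-fold. It stood at 21.0, 17.4 and 20.7 TPM in S302A_DEN, against 24.8, 21.2 and 20.3 TPM in S302A_Ctrl. In wild type it stood at 24.4, 24.0 and 23.0 TPM in WT_DEN, against 25.2, 19.2 and 21.6 TPM in WT_Ctrl. Its groups overlapped in both genotypes. The knock-in change of Scap was -0.16 ± 0.18, or -0.19 without S302A_DEN replicate 3.

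Insig1, one of the proteins that retain SCAP, is itself a known SREBP target. It stood at 165, 53.0 and 232 TPM in S302A_DEN, against 118, 135 and 87.7 TPM in S302A_Ctrl. S302A_DEN replicates lay on both sides of the S302A_Ctrl range, with replicate 2 the lowest of all 12 libraries. In wild type Insig1 stood at 239, 169.9 and 175 TPM in WT_DEN, against 183, 98.0 and 94.4 TPM in WT_Ctrl. The knock-in log2 change was 0.18 ± 0.45 (adjusted p = 0.831), and it was -0.25 without S302A_DEN replicate 3 and -0.14 after median-of-ratios scaling. The wild-type change was 0.68 ± 0.45 (adjusted p = 0.795).

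Insig2, the second such protein, did not overlap between DEN and untreated groups in either genotype. It stood at 146, 118 and 173 TPM in S302A_DEN, against 78.1, 112 and 79.3 TPM in S302A_Ctrl. Wild-type livers had 226, 168 and 143 TPM in WT_DEN, against 142, 142 and 104 TPM in WT_Ctrl. S302A_DEN replicate 2 and WT_DEN replicate 3 lay close to the highest untreated library of their genotype. The log2 changes of Insig2 were 0.70 ± 0.24 in the knock-in (adjusted p = 0.191) and 0.45 ± 0.24 in wild type (adjusted p = 0.660), and 0.58 ± 0.17 over both (adjusted p = 0.109). Insig2 had a knock-in change of 0.57 without S302A_DEN replicate 3.

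**Figure D4:**
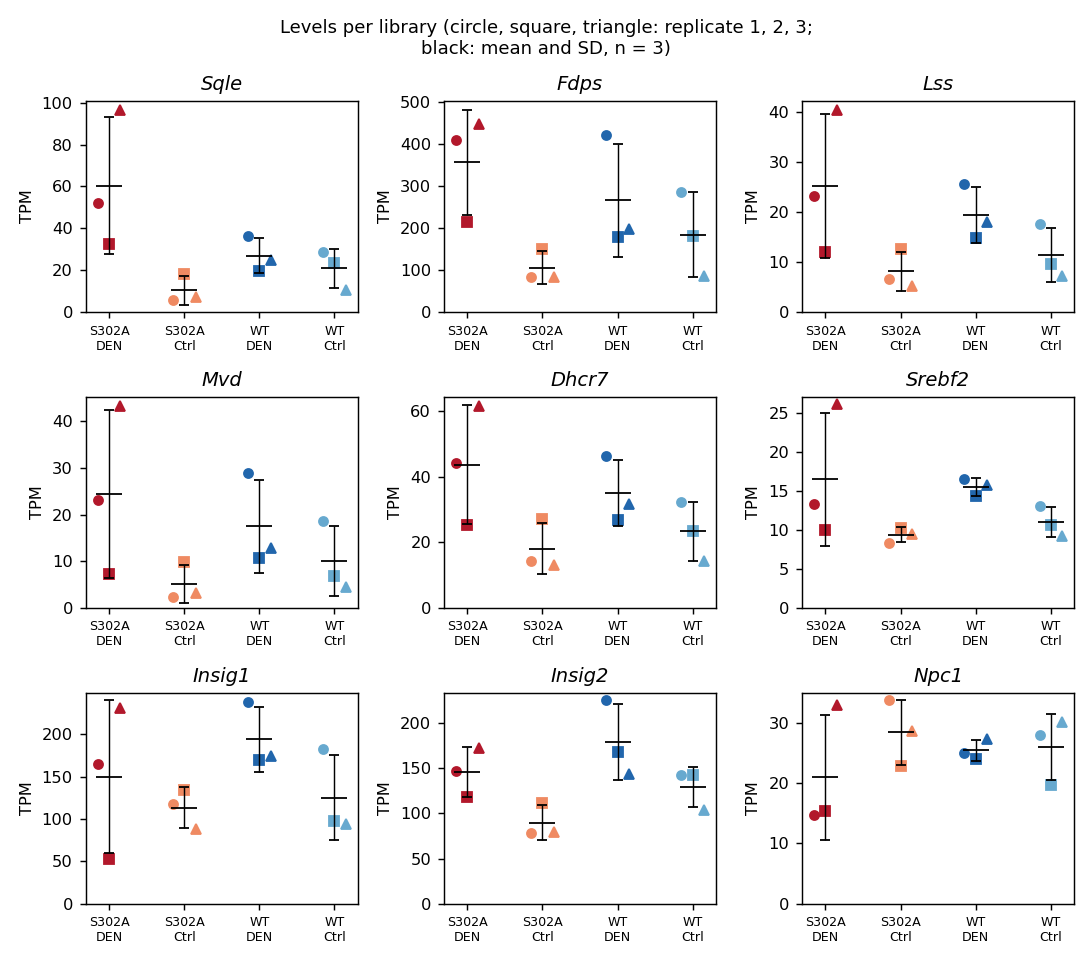
TPM in each library for 9 of the genes, with groups from left to right S302A_DEN, S302A_Ctrl, WT_DEN and WT_Ctrl, and the mean and SD (n = 3) of each. Sqle is at 32.7 TPM or more in all S302A_DEN libraries and at 18.4 TPM or less in all S302A_Ctrl libraries.

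Of the 3 genes of sterol transport and uptake control, 2 were lower in S302A_DEN than in S302A_Ctrl and 2 lower in WT_DEN than in WT_Ctrl. All 3 were lower in the knock-in when S302A_DEN replicate 3 was left out (median log2 change -0.57), and under median-of-ratios scaling all 3 were lower in both genotypes (median -0.69 in the knock-in and -0.18 in wild type). Npc1, which lets cholesterol out of lysosomes and was singled out after its values were seen, stood at 14.7, 15.3 and 32.9 TPM in S302A_DEN, against 33.7, 22.9 and 28.7 TPM in S302A_Ctrl. S302A_DEN replicates 1 and 2 were the lowest of all 12 libraries, and replicate 3 lay inside the S302A_Ctrl range. The log2 change was -0.50 ± 0.29 (adjusted p = 0.388). Without S302A_DEN replicate 3 Npc1 fell, with a log2 change of -0.86 ± 0.20 (adjusted p = 0.0495), and after median-of-ratios scaling of all libraries it fell with one of -0.81 (adjusted p = 0.0344). It also passed with quantile normalization (-0.82, adjusted p = 0.0321), with array quality weights (-0.85, adjusted p = 0.0108) and with scaling and S302A_DEN replicate 3 left out (-0.87, adjusted p = 0.0336). The share of all genes that passed was 0.619% in the main fit. In the alternatives where Npc1 passed it ran from 2.43% (S302A_DEN replicate 3 left out) to 13.3% (array quality weights). Npc1 did not pass in its remaining alternatives, at adjusted p of 0.340 to 0.968. In wild type Npc1 stood at 24.97, 24.1 and 27.4 TPM in WT_DEN, against 28.0, 19.7 and 30.2 TPM in WT_Ctrl, and the groups overlapped.

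Stard4, a cytosolic sterol carrier, averaged 11.3 ± 3.01 TPM in S302A_DEN and 16.0 ± 8.06 TPM in S302A_Ctrl, and 13.2 ± 1.67 TPM in WT_DEN and 17.5 ± 8.83 TPM in WT_Ctrl (SD, n = 3 each), with a knock-in change of -0.39 ± 0.36, or -0.57 without S302A_DEN replicate 3. Its highest values were 25.1 TPM in S302A_Ctrl replicate 1 and 27.7 TPM in WT_Ctrl replicate 1. Mylip, a ubiquitin ligase that lowers lipoprotein receptors, was near the lowest value in the files. It stood at 1.18, 1.25 and 2.69 TPM in S302A_DEN, against 1.97, 1.22 and 1.47 TPM in S302A_Ctrl. In wild type it stood at 2.09, 1.705 and 1.94 TPM in WT_DEN, against 1.03, 2.48 and 2.05 TPM in WT_Ctrl. Its groups overlapped in both genotypes. Its knock-in change of 0.05 turned to -0.19 without S302A_DEN replicate 3 and to -0.16 under median-of-ratios scaling.

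Neighbouring sterol genes gave 1 call, for DEN over both genotypes, where 1.34% of all genes passed and 0.289% passed downward. Among 19 genes of sterol efflux and transport, 13 were higher with DEN over both genotypes (median log2 change 0.22 against 0.21 over all genes, of which 80.7% were higher), and 1 passed, downward. When S302A_DEN replicate 3 was left out, 10 (median 0.07) were higher, against 0.07 and 62.6% over all genes, and under median-of-ratios scaling 8 (median -0.02) were, against 49.6% of all genes. The gene that passed was Abcg8, part of the transporter that exports sterols into bile, which averaged 20.6 ± 6.72 TPM in S302A_DEN and 44.1 ± 12.4 TPM in S302A_Ctrl, and 23.0 ± 3.25 TPM in WT_DEN and 39.6 ± 9.56 TPM in WT_Ctrl (SD, n = 3 each). Over both genotypes Abcg8 fell with a log2 change of -0.91 ± 0.20 (limma adjusted p = 0.0466). That call held in 2 of the 12 fits that each left out 1 library, those without S302A_DEN replicate 2 or 3. It ended in the other 10, at adjusted p up to 0.132, and without a filter, at 0.234. The Abcg8 call held in its other alternatives, at adjusted p of 0.00178 (array quality weights, where 26.2% of all genes passed) to 0.0448. Its partner Abcg5 averaged 27.4 ± 6.46 TPM in S302A_DEN and 53.9 ± 13.1 TPM in S302A_Ctrl, and 34.2 ± 7.03 TPM in WT_DEN and 50.2 ± 14.2 TPM in WT_Ctrl (limma adjusted p = 0.0887 over both genotypes). Abcg5 passed without S302A_DEN replicate 3 (log2 change -0.81, adjusted p = 0.0332) and under median-of-ratios scaling (-0.97, adjusted p = 0.0211). In these fits 5.55% and 5.84% of all genes passed. Of 14 genes that use isoprenoids outside sterol synthesis, 14 were higher over both genotypes (median 0.27), and of 12 genes of SREBP processing and cofactors 11 were (median 0.25). With S302A_DEN replicate 3 left out, 11 (median 0.12) of the isoprenoid genes and 9 (median 0.15) of the processing genes were higher, and under scaling 9 (median 0.05) and 6 (median 0.03) were. Of 11 further sterol-responsive genes 11 were higher (median 0.53), and of 5 enzymes that oxidise cholesterol to bile acids 4 were (median 1.09). With S302A_DEN replicate 3 left out, 11 (median 0.49) of the further sterol-responsive genes and 5 (median 0.87) of the bile acid enzymes were higher, and under scaling 10 (median 0.28) and 4 (median 0.85) were. No gene of these last 4 lists passed over both genotypes, and 1 did without S302A_DEN replicate 3, Lpin1, a lipid phosphatase (1.11, adjusted p = 0.0469). Cyp7a1, the rate-limiting enzyme of bile acid synthesis, averaged 30.5 ± 24.6 TPM in S302A_DEN and 6.61 ± 4.22 TPM in S302A_Ctrl, and 27.4 ± 16.4 TPM in WT_DEN and 20.1 ± 13.9 TPM in WT_Ctrl (limma adjusted p = 0.205 over both genotypes).

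Fatty acid synthesis, driven by the related factor SREBP1, was followed beside the cholesterol genes. Of 12 lipogenic genes, 6 were higher in S302A_DEN than in S302A_Ctrl (median log2 change 0.04) and 12 were higher in WT_DEN than in WT_Ctrl (median 1.23), with none passing. Over all genes 79.4% were higher in the knock-in (median 0.27) and 70.3% in wild type (median 0.13). Their interaction was above 0 in 0 of 12 (median -1.11), where that of the cholesterol genes was above 0 in 19 of 27 (median 0.41). Over all genes 66.6% lay above 0 (median 0.14). The difference between the lists was not tested. Without S302A_DEN replicate 3 the lipogenic interaction had a median of -1.198 over 11 genes, against -0.13 over all genes. In that fit 3 of the 11 passed in wild type, where 2.17% of all genes did. For 1 of them the interaction passed, where 0.631% of all genes did. This was Dgat2, which makes triglycerides (-1.198, adjusted p = 0.0411).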

How the data were processed

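The deposited files held TPM values per gene symbol, which the authors made with kallisto and mm10 per the submitters' processing notes; the version and annotation are not given in the sources used here. Libraries were made from liver RNA with TruSeq kits, per the labels' protocols. No value lay below 1, so 1 was read as 1 or less, and column totals exceeded the nominal TPM total by 1.61% to 1.82%. None of the 66 library pairs were identical. TPM keeps no depth, and TPM are not counts, so no count test was run.

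Values were analysed as log2(TPM + 1), which understates changes of low genes, in R 4.3.3 with limma 3.58.1. A single model of the 4 groups (8 residual degrees of freedom) was fitted over 12120 genes above 1 TPM in at least 3 libraries, with 6 contrasts. Tests were two-sided, with Benjamini-Hochberg adjustment across these genes and a threshold of 0.05. The fit was tested on simulated data. The members and lists were chosen with earlier results of these data known, and some genes of the pathway are not reported here. Values in every library are given for genes past the threshold, the 8 with the smallest p for the average DEN effect, and Srebf2, Scap, Insig1, Insig2 and Mylip; of other lists, genes past the threshold or with the 3 smallest p are named. Alternatives were other pseudocounts (0.1 and 0.5), filters, scalings and weights, each contrast's libraries alone, a replicate block and leaving out each library; scaling together with leaving out S302A_DEN replicate 3 was added after seeing the data. Of the 27 genes, 8 overlap another protein-coding gene, 6 of them on the opposite strand, and whether reads were assigned by strand is not given. Positions are from GENCODE M21. Where RefSeq gave several promoter windows for one of the 27 genes, the one nearest its GENCODE start was used. The shares among tested genes used the first listed window of each gene instead, and the shares of all windows counted every window.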

Additional observations from a re-analysis of the deposited data

How the results depend on the processing

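Calls over all genes were 16 for DEN in wild type, 75 for DEN in the knock-in, 4 for the knock-in untreated, 46 for the knock-in after DEN, 5 for the interaction, 162 for the average DEN effect; the alternatives that moved a count by over 1.5 times follow. Without a filter calls over all genes were 1 for DEN in wild type, 4 for DEN in the knock-in, 0 for the knock-in untreated, 9 for the knock-in after DEN, 2 for the average DEN effect, and calls among the 27 were 0 for DEN in the knock-in. With quantile normalization calls over all genes were 33 for DEN in wild type, 680 for DEN in the knock-in, 188 for the knock-in after DEN, 10 for the interaction, 719 for the average DEN effect, and calls among the 27 were 3 for DEN in the knock-in, 4 for the average DEN effect. With array quality weights calls over all genes were 2057 for DEN in wild type, 1609 for DEN in the knock-in, 1996 for the knock-in after DEN, 508 for the interaction, 3176 for the average DEN effect, and calls among the 27 were 4 for DEN in wild type, 12 for DEN in the knock-in, 3 for the knock-in after DEN, 17 for the average DEN effect. With each contrast's libraries alone calls over all genes were 147 for DEN in wild type, 17 for DEN in the knock-in, 2 for the knock-in untreated, 4 for the knock-in after DEN, and calls among the 27 were 0 for DEN in the knock-in. With the replicate block calls over all genes were 5 for DEN in wild type, 87 for the average DEN effect, and calls among the 27 were 0 for DEN in the knock-in. With scaling and S302A_DEN replicate 3 left out, added after seeing the data, calls over all genes were 210 for DEN in wild type, 845 for DEN in the knock-in, 425 for the knock-in after DEN, 94 for the interaction, 1170 for the average DEN effect, and calls among the 27 were 2 for DEN in the knock-in, 3 for the average DEN effect. With a filter at 5 TPM calls over all genes were 132 for DEN in the knock-in, and calls among the 27 were 1 for the average DEN effect. With median-of-ratios scaling calls over all genes were 651 for DEN in the knock-in, 210 for the knock-in after DEN, 12 for the interaction, 708 for the average DEN effect, and calls among the 27 were 3 for DEN in the knock-in, 4 for the average DEN effect. Under scaling 306 of 651 knock-in calls were upward, against 51 of 75 as deposited. Leaving out 1 library at a time, the calls over all genes spanned 1 to 258 for DEN in wild type, 16 to 335 for DEN in the knock-in, 0 to 12 for the knock-in untreated, 6 to 700 for the knock-in after DEN, 2 to 75 for the interaction, 17 to 1037 for the average DEN effect. Leaving out 1 library at a time, the calls among the 27 spanned 0 to 0 for DEN in wild type, 0 to 4 for DEN in the knock-in, 0 to 0 for the knock-in untreated, 0 to 0 for the knock-in after DEN, 0 to 0 for the interaction, 0 to 11 for the average DEN effect. Leaving out 1 library at a time, the median log2 change of the 27 spanned 0.13 to 0.54 for DEN in wild type, 0.59 to 1.22 for DEN in the knock-in, -0.62 to -0.08 for the knock-in untreated, -0.26 to 0.41 for the knock-in after DEN, 0.11 to 0.70 for the interaction, 0.41 to 0.70 for the average DEN effect. Whether the numbers in the titles pair the libraries could not be told. Of 18 same-numbered pairs 5 correlated over 0.1 (-0.19 to 0.28), and 7 of 12 libraries correlated best with their own number. With the replicate block Sqle had adjusted p = 0.0822 for DEN in the knock-in, and without a filter 0.327. For some genes the knock-in change with DEN took the other sign. That of Insig1 was -0.14 under scaling, -0.0485 under quantile normalization, -0.26 under scaling with S302A_DEN replicate 3 left out and -0.25 to 0.80 on leaving out 1 library. That of Ggps1 was -0.41 to 0.0912 on leaving out 1 library. That of Tm7sf2 was -0.22 under scaling, -0.18 under quantile normalization and -0.12 to 0.27 on leaving out 1 library. That of Lbr was -0.0553 under scaling with S302A_DEN replicate 3 left out and -0.044 to 0.71 on leaving out 1 library. That of Ebp was -0.0596 under scaling. That of Sc5d was -0.0224 under scaling. That of Mylip was -0.16 under scaling, -0.18 under quantile normalization, -0.19 under array weights, -0.20 under scaling with S302A_DEN replicate 3 left out and -0.19 to 0.19 on leaving out 1 library. The wild-type change did so for others. That of Nsdhl was -0.0696 under scaling, -0.14 under quantile normalization, -0.0718 under scaling with S302A_DEN replicate 3 left out and -0.18 to 0.41 on leaving out 1 library. That of Sc4mol was -0.0164 under scaling, -0.12 under quantile normalization, -0.0186 under scaling with S302A_DEN replicate 3 left out and -0.0418 to 0.38 on leaving out 1 library. That of Idi1 was 0.0119 under array weights and -0.46 to 0.24 on leaving out 1 library. That of Hmgcs1 was -0.74 to 0.00935 on leaving out 1 library. Over 27 genes in the knock-in, 14 in wild type, 9 for the average and 3 for the interaction, 1056 values kept their direction and side of the threshold, 50 came to pass it, 12 no longer did and 35 took the other sign. The cause of these shifts was not tested. Depth is unknown, so no limit on low values can be given beyond the lowest value of 1 TPM.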
